A study of Mus musculus with 4 samples.

Results

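Non-classical monocytes are the circulating monocytes that stay inside blood vessels and crawl along the endothelium, where they take up debris and lipoprotein. In mice they are known to arise from classical Ly6C-high monocytes, to need the nuclear receptor Nr4a1, and to depend on the fractalkine receptor Cx3cr1 for survival. Here they were taken from 4 single-cell RNA libraries of mouse liver made with 10x Genomics 5' chemistry. A barcode was a member when it passed the cell filter (a minimum of 500 UMIs and 300 genes, with mitochondrial UMIs not above 25%), held at least 1 UMI of the CSF1 receptor gene Csf1r and at least 2 UMIs of Ace and Treml4 together, and stayed under limits for other cells. Those limits were fewer than 3 UMIs of Ly6c2 and Chil3 together (classical monocytes), at most 2 of C1qa, C1qb and C1qc together (macrophages), fewer than 3 of Clec4f (Kupffer cells), 0 of Fcrls, fewer than 3 of Gpnmb and Spp1 together, 0 of Cd3e (T cells) and fewer than 2 of Cd79a (B cells). This gave 231 members among 42454 passing cells, a share of 0.544%.

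Each of the 4 groups was 1 library: liver with early hepatocellular carcinoma (eHCC) labelled Mef2d KO, eHCC labelled Mef2d WT, premalignant liver labelled Mef2d KO and premalignant liver labelled Mef2d WT. All tissue had been digested enzymatically before loading. The sources used here do not give the tumour induction, the age and strain of the mice, the animals per library, the deleted part of Mef2d or the cells that lost it. The title of the series speaks of tissue macrophages and of precursor cells with MEF2D, and the genotype comparison asks how cells of the tissue differ with that gene. There were 69 members in the KO eHCC library, 28 in the WT eHCC library, 57 in the KO premalignant library and 77 in the WT premalignant library. Members held 538546, 242800, 495387 and 669217 UMIs in the same order of libraries, of library totals of 93920711, 118594527, 56458438 and 96593761 UMIs. Median UMIs per member lay between 5834 and 7760.5. With 1 library per group no test between genotypes or stages was made, and every interval given for such a comparison is a 95% interval that covers counting error only. Levels are CPM, a gene's UMIs scaled to the usual common total of all UMIs of the members in that library. Pairs of libraries shared 27 to 46 barcode sequences. In the KO eHCC and WT eHCC pair 1 of them was a member barcode, and 0 were members in both libraries of a pair.

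Mef2d, the targeted gene (a MADS-box transcription factor gene at chromosome 3:88142372-88172086, + strand, in the GENCODE annotation of mouse GRCm38), was not lower in the libraries labelled KO. Members held 139 CPM (interval 110.0 to 175) in the library labelled KO eHCC and 115 CPM (76.6 to 167) in the WT eHCC library, a log2 ratio of 0.27 (-0.37 to 0.95). In premalignant liver they held 119 CPM (90.7 to 154) under the KO label and 131 CPM (105 to 162) under the WT label, with a log2 ratio of -0.14 (-0.64 to 0.35). Both intervals include 0, so the label was not visible as a loss of Mef2d RNA in these cells. Over all passing cells Mef2d was higher under the KO label, with log2 ratios of 0.63 at eHCC and 0.51 in premalignant liver. Since neither the deleted part nor the targeted cells are known, the tags counted here may lie outside it and these values do not check the label, and "KO" below means the library labelled KO.

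Ace and Treml4 chose the cells, so their levels are a description. Ace (chromosome 11:105967945-105989964, + strand), which encodes the angiotensin-converting enzyme, stood at 422 CPM in KO eHCC, 379 in WT eHCC, 319 in KO premalignant and 356 in WT premalignant members. Treml4 (chromosome 17:48264295-48275360, + strand), a receptor of the TREM family, stood at 339.8, 272, 240.2 and 284 CPM in the same libraries. Classical monocytes, taken with the same gates except that Ly6c2 and Chil3 together reached at least 3 UMIs and Ace and Treml4 together stayed under 2, held 4.25 to 10.8 CPM of Ace and 6.38 to 11.8 CPM of Treml4. Both genes were seen in 52 of 69 KO eHCC, 20 of 28 WT eHCC, 34 of 57 KO premalignant and 59 of 77 WT premalignant members. Members just inside the gate, with exactly 2 UMIs of Ace and Treml4 together, numbered 10, 6, 11 and 15 in that order. In the WT premalignant library those 15 cells held 63.8 CPM of Adgre4 and 417 CPM of Xcr1, while the 17 cells just outside, with 1 UMI, held 41.2 and 133 CPM and the 62 cells with 3 or more held 372 and 47.3 CPM.

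A set of premalignant members went against the label. In the KO premalignant library 9 of 57 members (15.8%), and in the WT premalignant library 8 of 77 (10.4%), held at least 2 UMIs of Xcr1, Clec9a and Flt3, genes of type 1 conventional dendritic cells, which take up dead cells and present antigen to CD8 T cells. No member of the KO eHCC library (0 of 69, upper limit 5.21%) or of the WT eHCC library (0 of 28, upper limit 12.3%; exact Clopper-Pearson) did. These cells were large, with median UMIs of 20954 in the KO and 18031.5 in the WT premalignant library, against 5315 and 5575 in the other members of those libraries, so they supplied 38.2% and 29.7% of the members' UMIs.

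All 17 of these cells held Treml4 and none held a UMI of Ace, Cx3cr1, Adgre4 or Fcgr4. They entered the gate through Treml4 alone. Xcr1 stood at 523 CPM in the 9 KO cells and 538 in the 8 WT cells, against 0 in the other members of either library. That split largely follows from the choice of these cells by Xcr1, Clec9a and Flt3. Irf8, a transcription factor that type 1 dendritic cells require, stood at 2293 CPM in the KO and 2015 in the WT cells, against 157 and 179 CPM in the other members. The MHC class II invariant chain Cd74 stood at 16577 and 14284 CPM, against 2741 and 2676 CPM. Among all passing cells with at least 2 UMIs of Xcr1 and Clec9a, Treml4 was found in 12 of 84 KO eHCC, 24 of 101 WT eHCC, 32 of 177 KO premalignant and 65 of 278 WT premalignant cells, so Treml4 RNA was present in such cells in every library. The plot of dendritic and monocyte genes in these members shows the split. Values without these 17 cells are given below beside the counts of genes and most gene groups. In the comparisons with other classes, cells with these markers were removed from both classes. Classical monocytes fell from 393 to 372 in KO eHCC and from 308 to 282 in WT eHCC. In premalignant liver they fell from 96 to 84 (KO) and from 88 to 76 (WT).

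**Figure D1:**
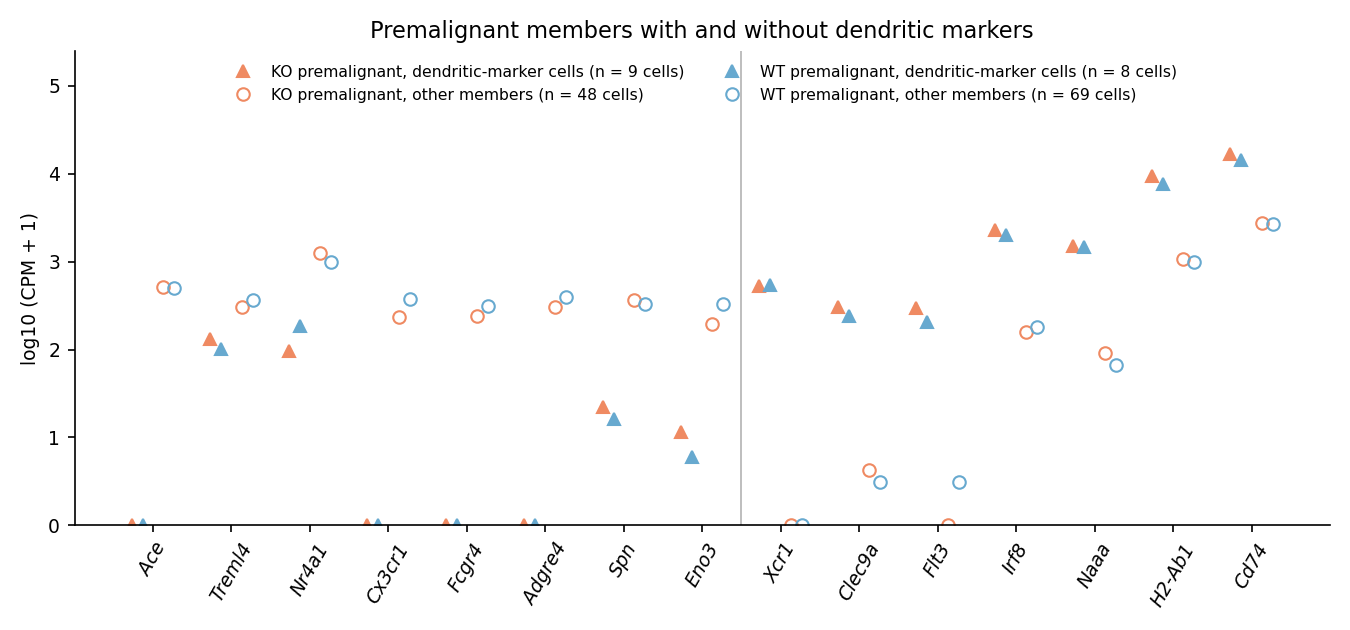
Level of 15 genes in premalignant members with dendritic markers (filled triangles, 9 KO and 8 WT cells) and in the other premalignant members (open circles, 48 KO and 69 WT cells). The vertical axis is log10 of CPM + 1 and a point is the sum of the cells of a library. Ace, Cx3cr1, Fcgr4 and Adgre4 are at 0 in the cells with dendritic markers, and Xcr1 is at 0 in the others. Xcr1, Clec9a and Flt3 chose the cells with dendritic markers, so their levels are a description.

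Markers of other cells were also present. At least 3 UMIs of 6 endothelial genes (Stab2, Kdr, Ptprb, Clec4g, Cdh5 and Dnase1l3) were held by 2 KO eHCC, 2 WT eHCC, 10 KO premalignant and 28 WT premalignant members, and the summed level was 16.7, 1009, 1193 and 2098 CPM in that order. At least 3 UMIs of 6 neutrophil genes were held by 1, 8, 3 and 2 members, at 100.3, 507, 1213 and 53.8 CPM. Erythroid genes were at 1692 CPM in KO eHCC members, all 69 of which held at least 3 UMIs, against 38.4 to 119 CPM in the other libraries. Kupffer genes were near 0 (4.12 to 25.4 CPM summed over 5 genes, with Vsig4 at 0 UMIs in every library) and Cd3e was 0 by the gate. T cell genes summed to 152 CPM in KO eHCC, 41.2 in WT eHCC, 98.9 in KO premalignant and 59.8 in WT premalignant members. In that order, 7, 5, 21 and 27 members held at least 3 UMIs of 6 B cell genes. For 6 hepatocyte genes the counts were 0, 7, 11 and 27. Hepatocyte genes summed to 608 CPM in KO and 251 CPM in WT premalignant members. In members without dendritic, endothelial or neutrophil markers these levels were 1230 and 392 CPM. Members left without dendritic, endothelial or neutrophil markers numbered 66 in KO eHCC, 18 in WT eHCC, 40 in KO premalignant and 45 in WT premalignant liver. This stricter set is named as such where it is used, and it was chosen, like the removal of dendritic-marker cells, after the data had been seen.

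Against classical monocytes the members carried the wider programme of non-classical monocytes. The comparison sums the UMIs of each class in each library and pairs the classes within the 4 libraries (edgeR quasi-likelihood with library as a block, Benjamini-Hochberg adjusted p at most 0.05). Of 7086 genes tested, 231 were higher (3.26%) and 193 lower (2.72%) in non-classical monocytes. The gates drew the line between the classes, so these p-values say how alike the difference was across the 4 libraries and are no independent evidence that the class exists. Among 17 further genes of non-classical monocytes that the gates did not use, 15 were higher and 0 lower, with a median log2 difference of 2.57 against 0.05 over all genes tested.

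Cd300e, an activating receptor of monocytes, stood at 319 CPM in KO eHCC, 181 in WT eHCC, 145 in KO premalignant and 245 in WT premalignant non-classical monocytes, against 0.5, 0.301, 0 and 0 CPM in the classical monocytes of the same libraries (adjusted p = 8.29e-06, edgeR). The ranges were far apart in every library. The enolase gene Eno3, usually known from muscle, stood at 321, 169, 125 and 230.1 CPM against 5.67, 3.92, 0.982 and 6.38 CPM (log2 difference 5.60, adjusted p = 1.45e-05). Ear2, an eosinophil-associated ribonuclease gene, stood at 224 to 589 CPM against 19.1 to 39.5 CPM (3.63), and the Fc gamma receptor IV gene Fcgr4 at 149 to 459 CPM against 8.84 to 41.9 CPM (3.50). Adgre4, an adhesion G protein-coupled receptor gene, stood at 189.8 to 407 CPM against 22.3 to 42.2 CPM (3.29). In each of these genes the lowest non-classical library lay above the highest classical library. The genes were chosen by adjusted p with 1 sign in every library, which favours such a gap. The share of all tested genes with such a gap was not counted. The ion transporter gene Slc12a2 (log2 difference 6.68), Lilra5 (5.71), the sphingosine-1-phosphate receptor S1pr5 (4.67), the lipid-sensing nuclear receptor Pparg (4.12) and the PD-1 ligand Cd274 (2.57) were also among the 15 named higher genes. The 2 list members that did not pass were the transcription factors Klf2 (log2 difference 0.57, adjusted p = 0.131) and Cebpb (-0.01, adjusted p = 0.983), and without the dendritic-marker cells Klf2 passed (0.64, adjusted p = 0.0286).

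The genes of classical monocytes ran the other way. Of 8 that the gates did not use, 0 were higher and 8 lower, with a median log2 difference of -2.90. Ccr2, the receptor that lets classical monocytes leave the bone marrow, stood at 184 CPM in KO eHCC, 449 in WT eHCC, 307 in KO premalignant and 253 in WT premalignant non-classical monocytes, against 712, 1033, 986 and 862 CPM in classical monocytes (log2 difference -1.68, adjusted p = 0.000808). Ccr2 was thus lower but not absent. F13a1 (-4.12), Fn1 (-3.82), Vcan (-3.78), Ccr1 (-3.61), Hp (-2.02) and S100a6 (-1.92) were among the 15 named lower genes, and so were Slpi, Cd177 and Prtn3, which are known from neutrophils and their precursors. The classical monocytes themselves held neutrophil markers: 198 of 308 in the WT eHCC library had at least 3 UMIs, and 106 of 393 in the KO eHCC library. The part of these cells in the lower calls was not tested beyond the setting that removes them, under which 504 genes were lower and 551 higher in the 3 libraries that kept at least 20 cells of both classes.

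Nr4a1 and Cx3cr1, markers that the gates did not use, did not pass the test in the full set. Nr4a1 (chromosome 15:101254269-101274795, + strand) stood at 1162 CPM in KO eHCC, 1104 in WT eHCC, 814 in KO premalignant and 750.1 in WT premalignant non-classical monocytes, against 436, 771, 708 and 495 CPM in classical monocytes. It was higher in 4 of 4 libraries but did not pass (log2 difference 0.66, adjusted p = 0.0878), and passed without the dendritic-marker cells (0.80, adjusted p = 0.00732). Cx3cr1 (chromosome 9:119901616-120069879, - strand) stood at 162, 227, 143 and 263 CPM against 68.9, 183, 175 and 159 CPM, so it was higher in 3 of 4 libraries and lower in the KO premalignant library (0.48, adjusted p = 0.282). A UMI of Nr4a1 was found in 67 of 69, 27 of 28, 50 of 57 and 71 of 77 members, and a UMI of Cx3cr1 in 40, 16, 28 and 52 of them.

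**Figure D2:**
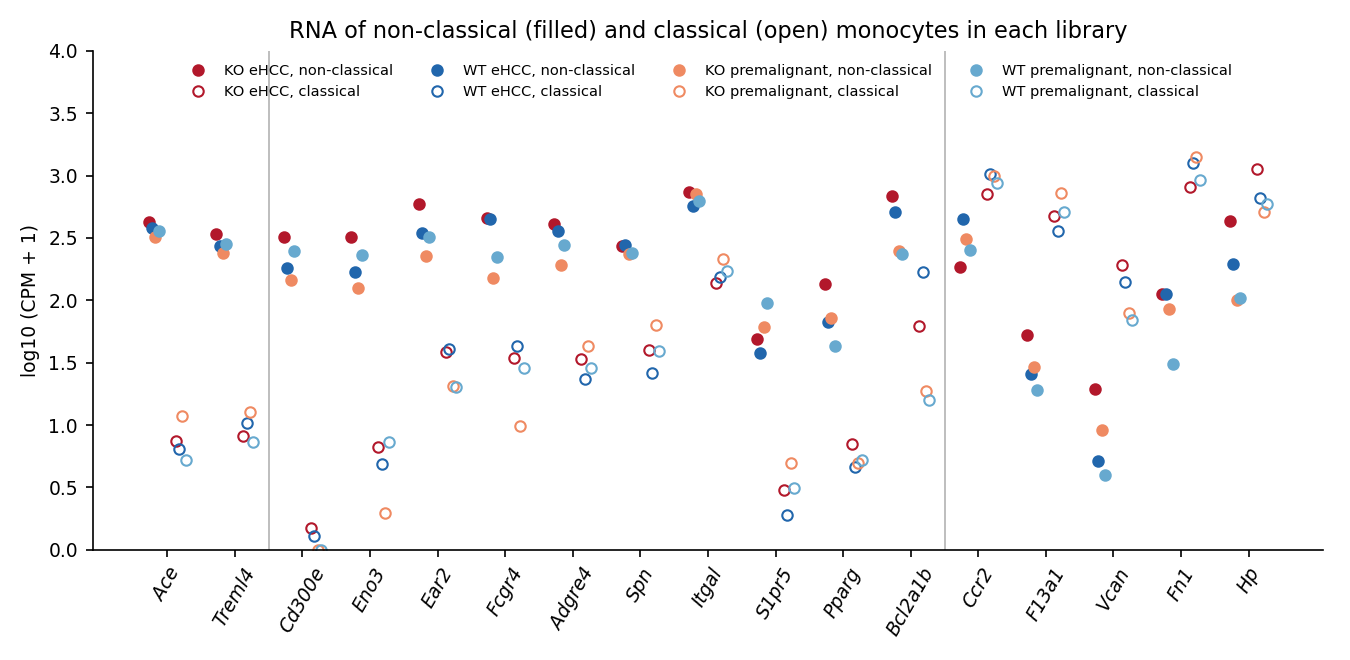
Level of 17 genes in non-classical (filled) and classical (open) monocytes of each library, as log10 of CPM + 1. The first 2 genes are from the gates, the next 10 were higher and the last 5 lower in non-classical monocytes. Cd300e lies between 145 and 319 CPM in non-classical and at 0.5 CPM or less in classical monocytes.

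Gene groups between the classes are described by counts and medians, with no test of a group. Of 21 adhesion genes 9 were higher and 2 lower (median log2 difference 0.65), and 10 and 2 without the dendritic-marker cells (0.90). Itgal, the integrin chain with which patrolling monocytes hold on to endothelium, stood at 737 CPM in KO eHCC, 564 in WT eHCC, 711 in KO premalignant and 628 in WT premalignant non-classical monocytes, against 136, 152, 214 and 171 CPM in classical monocytes (1.96, adjusted p = 0.000461). Its partner Itgb2 (0.84), the sialomucin Spn (2.67), Itgax (2.54) and the scavenger receptor Cd36 (3.74) were higher too, and Itgb7 was among the lower members. Of 28 transcription factors 6 were higher (Pparg, Tcf7l2, Nr1h3, Pou2f2, Bcl6 and Id2) and 3 lower, among them Cebpa and Cebpd, and without the dendritic-marker cells 11 were higher and 4 lower. The Id2 call did not hold without dendritic-marker cells (log2 difference 0.48, adjusted p = 0.194). In that setting Mef2d (0.90, adjusted p = 0.0108), Mef2a (0.70, adjusted p = 0.026) and Mef2c (0.85, adjusted p = 0.00646) passed, which in the full set had adjusted p-values of 0.0592, 0.0959 and 0.0931.

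Of 18 survival genes 6 were higher and 1 lower, or 7 and 1 without the dendritic-marker cells. Bcl2, an inhibitor of apoptosis, stood at 98.4, 128, 74.7 and 85.2 CPM in KO eHCC, WT eHCC, KO premalignant and WT premalignant non-classical monocytes, against 24.2, 41.6, 20.6 and 26.6 CPM in classical monocytes (log2 difference 1.77, adjusted p = 0.00152). The related genes Bcl2a1a, Bcl2a1b and Bcl2a1d were higher by 2.96 to 3.15. They are near-identical copies between which reads may be split, so their single values are uncertain. The death genes Bbc3 and Pmaip1 were higher as well. Lipid genes moved both ways, with 5 of 19 higher (Cd36, Pparg, Abcg1, Nr1h3 and Cd9) and 3 lower (Trem2, Lgals3 and Npc2), or 8 and 5 without the dendritic-marker cells. Of 16 chemokine and receptor genes 0 were higher and 4 lower, among them Ccl2, Ccr1 and Ccr2, or 1 and 5 without the dendritic-marker cells. Of 27 interferon response genes 0 were higher and 7 lower, with a median log2 difference of -1.02. Without the dendritic-marker cells 0 were higher and 5 lower of 24 (median -0.84), and Ifi209 and Isg15 were the genes called lower in both sets. Fc receptor genes split: Fcgr4 was higher, Fcgr1 (-1.54) and Fcgr3 (-1.22) were lower, and without the dendritic-marker cells Fcer1g and Fcgrt were higher too.

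Without the dendritic-marker cells of either class 537 genes were higher (8.33%) and 443 lower (6.87%) of 6449 tested. Of the 231 higher calls 216, and of the 193 lower calls 178, were among them. Leaving out a library changed the counts as well. Without KO eHCC 54 genes were higher and 83 lower, without WT premalignant 82 and 68, without KO premalignant 159 and 116, and without WT eHCC 229 and 242.

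The other neighbour class was C1q macrophages, defined by more than 2 UMIs of C1qa, C1qb and C1qc together, fewer than 2 of Ace and Treml4 and fewer than 3 of Ly6c2 and Chil3. Of 6559 genes 270 were higher (4.12%) and 202 lower (3.08%) in non-classical monocytes. Spn stood at 269 CPM in KO eHCC, 276 in WT eHCC, 234 in KO premalignant and 238 in WT premalignant non-classical monocytes, against 14.2, 25.1, 16.9 and 5.91 CPM in C1q macrophages (log2 difference 4.0, adjusted p = 0.00157, edgeR). Ms4a7, a membrane protein gene of tissue macrophages, stood at 16.7, 37.1, 4.04 and 4.48 CPM against 829, 775, 89.9 and 145 CPM (-5.03, adjusted p = 0.000331). Neither gene overlapped between the classes, but both were chosen by adjusted p with 1 sign in every library, which favours such a gap. Eno3 (4.43), Pglyrp1 (5.37), Clec4e (3.92) and the glutathione reductase gene Gsr (2.76) were also higher. The complement receptor C3ar1 (-5.64), the efferocytosis receptor Axl (-3.53), Cd5l (-4.44), the transcription factor Maf (-2.27) and the lysosomal protease gene Lgmn (-1.94) were lower. Of 18 complement and phagocytosis genes 8 were lower and 1 higher, and of the 17 further non-classical genes 13 were higher. Fcgr4 (log2 difference 0.33, adjusted p = 0.563) and Cx3cr1 (-0.04, adjusted p = 0.982) were not called against C1q macrophages. Without the dendritic-marker cells of either class 430 genes were higher (7.07%) and 309 lower (5.08%) of 6083. This comparison rested on few macrophages, 21 in the KO premalignant library. With high doublet scores removed, 3 libraries had at least 20 cells of both classes and 0 genes passed edgeR (410 higher and 330 lower at an unadjusted p under 0.05); in the full set DESeq2 called 268 higher and 204 lower.

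At eHCC non-classical monocytes were a larger share of cells in the KO library. They made up 0.770% of passing cells (0.599 to 0.973) in KO eHCC and 0.272% (0.181 to 0.393) in WT eHCC, a log2 ratio of 1.5 (0.85 to 2.19). In premalignant liver they made up 0.600% (0.455 to 0.777) in KO and 0.562% (0.443 to 0.701) in WT, a log2 ratio of 0.10 (-0.42 to 0.61). The eHCC libraries therefore lay apart beyond counting error and the premalignant libraries did not. The share depends on how many other cells were captured: of cells with a Csf1r UMI, members were 5.43% in KO eHCC, 0.597% in WT eHCC, 14.2% in KO premalignant and 6.80% in WT premalignant liver.

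As a share of both monocyte classes, members were 14.9% (11.8 to 18.5) in KO eHCC and 8.33% (5.61 to 11.8) in WT eHCC, a log2 odds ratio of 0.95 (0.25 to 1.67). In premalignant liver they were 37.3% (29.6 to 45.4) in KO and 46.7% (38.9 to 54.6) in WT (-0.56, -1.24 to 0.12). Members were the smaller part of the monocytes at eHCC under both labels, with log2 odds ratios of eHCC over premalignant of -1.76 (-2.39 to -1.12) in KO and -3.27 (-4.03 to -2.52) in WT. Without cells that carry dendritic, endothelial or neutrophil markers, in either class, the shares were 19.8% in KO eHCC, 15.7% in WT eHCC, 38.8% in KO premalignant and 46.9% in WT premalignant liver. The genotype difference at eHCC then had a log2 odds ratio of 0.41 with an interval of -0.44 to 1.33 that includes 0. Classical monocytes fell from 393 to 267 in KO eHCC and from 308 to 97 in WT eHCC in that set. As a share of passing cells, members of that set had a log2 ratio at eHCC of 2.07 (1.30 to 2.91). The result of the stricter set thus depended on the denominator. The plot of shares shows both sets.

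The eHCC shares moved with the C1q limit. In B cells, which do not make C1q, a C1q UMI was found in 9.74% of cells in KO eHCC, 69.7% in WT eHCC, 2.12% in KO premalignant and 21.4% in WT premalignant liver, at median depths of 5116, 4820.5, 4107 and 3658.5 UMIs. More than 2 C1q UMIs, which the gate refuses, were found in 0.342% of B cells in KO eHCC, 13.2% in WT eHCC, 0.207% in KO premalignant and 0.852% in WT premalignant liver. The part of free RNA in the members' shares was not tested. Among members a C1q UMI was found in 13%, 64.3%, 8.77% and 22.1% in the same order. Members lay above the B cells of their library in 3 libraries and below them in WT eHCC. The gate limits members to 2 C1q UMIs, while 13.2% of the WT eHCC B cells held more. The order in WT eHCC therefore cannot be read. With the limit raised to 10 UMIs, KO eHCC had 76 members and WT eHCC 39, and the log2 ratio of shares of passing cells was 1.16 (0.59 to 1.76). With the limit at 0 they had 60 and 10, and the ratio was 2.78 (1.81 to 3.91). Ace and Treml4 themselves were rare in B cells: 2 or more UMIs were seen in 1 of 585 KO eHCC, 0 of 402 WT eHCC, 2 of 1937 KO premalignant and 4 of 3170 WT premalignant B cells.

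**Figure D3:**
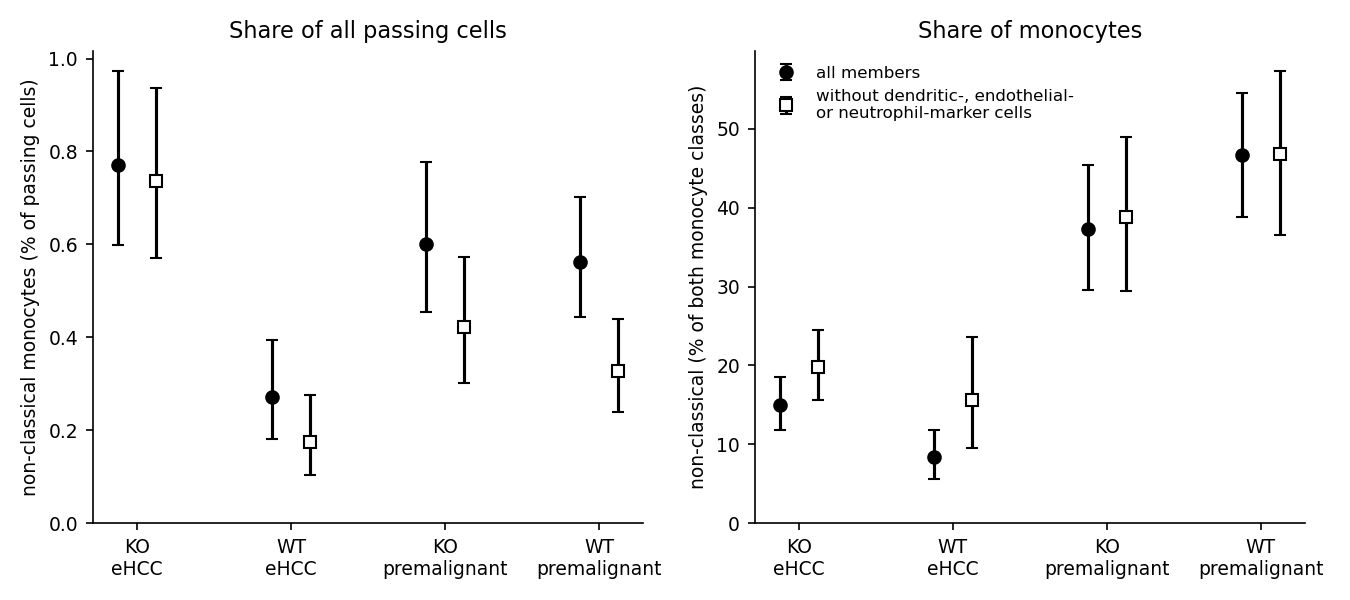
Non-classical monocytes as a percentage of all passing cells (left) and of both monocyte classes (right) in each library, with exact 95% intervals for counting error. Filled circles are all members and open squares are cells without dendritic, endothelial or neutrophil markers. KO eHCC lies above WT eHCC in the left panel, at 0.770% and 0.272%, and the premalignant libraries overlap.

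Between genotypes at eHCC, 164 of 3664 measured genes (4.48%) were at least 2-fold higher and 242 (6.6%) at least 2-fold lower in KO than in WT members. Measured genes had at least 30 UMIs in both libraries together. With TMM scaling, which puts the median of all measured genes at 0.15 in place of 0.01, 230 were higher and 202 lower, so the balance of directions turned with the scaling. The 10 named higher genes included Fth1, Id2, Cd14 and Plin2, and the 10 named lower genes included Fkbp5, Fos, Atf3 and Dusp1. The WT eHCC library has 28 members, 2 with endothelial markers and 8 with neutrophil markers. Counts, group medians and the ratios of Fth1, Id2 and Cd14 are therefore also given for the stricter set of 66 KO and 18 WT cells. For the other named genes at eHCC no value of the stricter set is given. In that set 190 of 3012 genes (6.31%) were at least 2-fold higher and 131 (4.35%) lower.

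The ferritin heavy chain gene Fth1 stood at 8627 CPM in KO and 3727 CPM in WT eHCC members, a log2 ratio of 1.21 (1.11 to 1.32; 1.15 in the stricter set). In classical monocytes it stood at 6435 and 7028 CPM in the same libraries, a log2 ratio of -0.13 (-0.15 to -0.10). Fth1 thus differed in opposite directions in the 2 monocyte classes. The difference between the classes was not tested. Classical monocytes held neutrophil genes at 942 CPM in KO eHCC and 17903 CPM in WT eHCC. They held macrophage genes at 1863 and 6532 CPM. The part of these cells or RNA in the classical ratios given here and below was not tested. Nr4a3, a nuclear receptor of the same family as Nr4a1, had 53 UMIs in KO and 3 UMIs in WT eHCC members, 98.4 and 12.4 CPM (log2 ratio 2.99, 1.37 to 5.32), against -0.28 (-0.48 to -0.08) in classical monocytes. Nr4a1 itself stood at 1162 CPM in KO and 1104 CPM in WT members (0.07, -0.13 to 0.29).

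Id2, a transcriptional inhibitor, stood at 793 CPM in KO and 276 CPM in WT eHCC members (log2 ratio 1.52, 1.15 to 1.92) and at 268 and 245 CPM in classical monocytes (0.13, 0.01 to 0.25). The endotoxin co-receptor Cd14 stood at 798 CPM in KO and 280.1 CPM in WT members (1.51, 1.14 to 1.90), against 0.52 (0.47 to 0.57) in classical monocytes. In the stricter set the log2 ratios of Id2 and Cd14 were 1.03 and 1.09. Other named genes were higher by like amounts in both classes. The lipid droplet coat gene Plin2 stood at 649.9 CPM in KO and 247 CPM in WT members (1.40, 1.00 to 1.82; classical 1.37), the lactate exporter gene Slc16a3 at 254 and 74.1 CPM (1.78, 1.06 to 2.58; classical 1.31) and the receptor gene Gpr132 at 227 and 70.0 CPM (1.69, 0.96 to 2.52; classical 1.52). Got1 (2.63), Cks2 (2.0) and Ninj1 (1.95) complete the 10 named higher genes.

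Fkbp5 had 6 UMIs in KO and 34 UMIs in WT eHCC members, 11.1 and 140.0 CPM, a log2 ratio of -3.65 (-5.19 to -2.38). Classical monocytes held 11.3 and 173 CPM (-3.93, -4.31 to -3.57), so the gene was lower under the KO label in both classes. Fos, a subunit of the AP-1 factor, stood at 698 CPM in KO and 2768 CPM in WT members (-1.99, -2.17 to -1.80; classical -1.88), and Atf3 at 214 and 675 CPM (-1.66, -2.02 to -1.31; classical -2.12). The phosphatase gene Dusp1 (843 CPM in KO, 1869.8 in WT), the endothelial and lymphocyte factor Klf2 (953 and 2212), the cytokine signalling inhibitor Socs3 (369.5 and 783) and the RNA-binding protein gene Zfp36 (982 and 1837) had log2 ratios of -1.15, -1.22, -1.08 and -0.90. Plagl2 (-1.96) and Smc3 (-1.63) were lower in members and differed by -0.32 (-0.73 to 0.10) and -0.07 (-0.30 to 0.17) in classical monocytes. Ap1s2 (-1.16) is the remaining named gene. In the plot of named genes most lower genes lie on the same side in both classes.

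**Figure D4:**
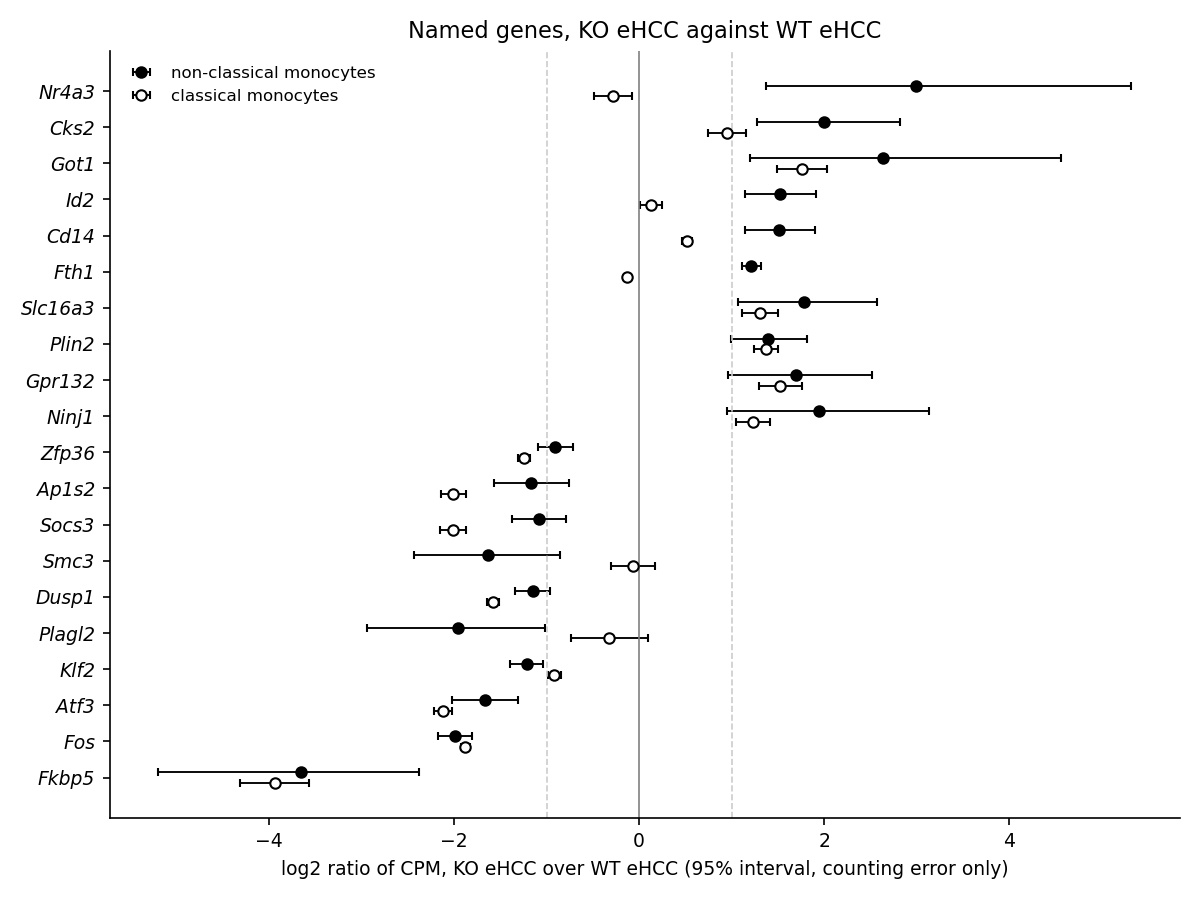
Log2 ratio of CPM, KO eHCC over WT eHCC, for the 20 named genes in non-classical (filled) and classical (open) monocytes. Bars are exact 95% intervals for counting error and dashed lines mark a 2-fold difference. Fth1 lies at 1.21 in non-classical and -0.13 in classical monocytes, while Fos and Fkbp5 are lower in both.

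By group, 14 of 16 measured glycolysis and hypoxia genes had a log2 ratio above 0 at eHCC and 3 were at least 2-fold higher, with a median of 0.59 against 0.01 over all measured genes (0.45 in the stricter set). Of all measured genes 51.2% were above 0, and 50.2% in the stricter set. The glycolytic enzyme gene Aldoa stood at 512 CPM in KO and 239 CPM in WT members (1.10, 0.69 to 1.54), and Tpi1 at 227 and 98.8 CPM (1.20, 0.56 to 1.89). The growth factor gene Vegfa had 47 UMIs in KO members, 32% of them in 1 cell, and 1 UMI in WT members, a log2 ratio of 4.41 (1.86 to 9.74). Of 17 immediate-early genes 4 were above 0 and 5 at least 2-fold lower (Egr1, Fos, Jun, Atf3 and Dusp1), with a median of -0.44 (-0.30 in the stricter set). Egr1 rested on 11 UMIs in KO and 28 UMIs in WT members, with 64% of the WT UMIs in 1 cell. Of 13 glucocorticoid response genes 1 was at least 2-fold higher and 4 lower (Fkbp5, Dusp1, Cebpd and Txnip), and the median was -0.12 (-0.27 in the stricter set). MHC class I genes had a median of 0.40, with 11 of 14 above 0 and 0 past 2-fold, and a median of 0.22 with 1 of 13 at least 2-fold higher in the stricter set. Of the 17 further non-classical genes 14 were above 0, 0 at least 2-fold higher and 1 lower (median 0.39; 0.08 in the stricter set), and interferon genes had a median of 0.44 that was -0.05 in the stricter set. Erythroid RNA, at 1692 CPM in KO and 119 CPM in WT members, differed between the same libraries, and its part in these ratios was not tested.

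Between genotypes in premalignant liver fewer genes lay at least 2-fold apart than at eHCC. The pairs differ in depth, with 242800 UMIs in WT eHCC and 669217 in WT premalignant members. The part of depth in these counts was not tested. Of 5314 measured genes 102 (1.92%) were at least 2-fold higher and 191 (3.59%) at least 2-fold lower in KO members. Without the dendritic-marker cells the counts were 108 (2.63%) and 114 (2.78%) of 4106, and in the stricter set 80 (3.19%) and 29 (1.16%) of 2509. The chemokine gene Ccl3, whose product attracts monocytes and T cells, stood at 335 CPM in KO and 131 CPM in WT premalignant members, a log2 ratio of 1.35 (0.97 to 1.74), 1.24 without dendritic-marker cells and 1.59 in the stricter set. In classical monocytes the ratio was 0.11 (-0.08 to 0.31). The Notch target gene Hes1 stood at 602 CPM in KO and 294 CPM in WT members (1.03, 0.77 to 1.30; 1.20 without dendritic-marker cells). Both were higher in KO in all 3 sets. Il1b stood at 599.5 CPM in KO and 315 CPM in WT members (0.93, 0.67 to 1.19), and the ratio was 0.29 in the stricter set.

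The fractalkine receptor Cx3cr1 was lower in KO than in WT premalignant members, at 143 CPM and 263 CPM, a log2 ratio of -0.88 (-1.29 to -0.47). It was -0.69 without dendritic-marker cells and -0.88 in the stricter set, against 0.13 (-0.19 to 0.46) in classical monocytes. The whey acidic protein gene Wfdc17 stood at 107 CPM in KO and 235 CPM in WT members (-1.13, -1.61 to -0.68; -0.99 without dendritic-marker cells), and over all passing cells the log2 ratio was -2.46. Several named genes were found mainly in members with markers of other cells. Anpep (60.6 CPM in KO, 16.4 in WT) had 0 UMIs outside the dendritic-marker cells. Rtl8b (131 and 52.3 CPM) had 0 UMIs in the other KO members. The endothelial genes Gpihbp1 (94.9 CPM in KO, 387 in WT) and Cdh5 (72.7 and 194 CPM) held 18.0 and 44.9 CPM, and 4.50 and 32.7 CPM, in the stricter set. Bmp2 stood at 115 CPM in KO and 245 CPM in WT members (-1.09), with 74% of the KO UMIs in 1 cell, and in the stricter set its ratio was 1.14.

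Of 3 unannotated or little-known transcripts, Gm42418, which overlaps a ribosomal RNA precursor, was higher in KO (3191 CPM, against 1790.2 CPM in WT; 0.83) and Gm42031 (3 UMIs in KO, 46 in WT; -3.50) and Gm26522 (5 and 30 UMIs; -2.15) were lower. Classical monocytes differed alike, by 1.01, -3.85 and -1.31. Parp8, Larp7, Fbxl6 and Zc3h18 were higher by 1.40 to 1.66 and Ctla2a, Ufl1, Aggf1 and Cryzl1 lower by -1.77 to -2.23.

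By group, 13 of 14 measured heat shock genes had a log2 ratio above 0 in premalignant liver, 0 were at least 2-fold higher and 1 lower, with a median of 0.37 against -0.03 over all measured genes. The median was 0.39 without dendritic-marker cells and 0.65 in the stricter set, where 12 of 12 were above 0. Of all measured genes 46.9% were above 0, 50.5% without dendritic-marker cells and 48.2% in the stricter set. The inducible chaperone gene Hspa1a stood at 1405 CPM in KO and 953 CPM in WT members (0.56, 0.40 to 0.72), and Dnajb1 at 166 and 98.6 CPM (0.75, 0.26 to 1.24). Of 16 inflammatory genes 13 were above 0 and 4 at least 2-fold higher (median 0.41; 0.59 without dendritic-marker cells and 0.29 in the stricter set). All 9 MHC class II genes were above 0 (median 0.51), and without the dendritic-marker cells 6 of 6 were, with a median of 0.16 (0.66 in the stricter set, with 1 of 6 at least 2-fold higher). Interferon genes had a median of -0.23, -0.61 without dendritic-marker cells and 0.24 in the stricter set, so no direction held. The 17 further non-classical genes had a median of -0.11, with 5 above 0 and 0 past 2-fold in either direction (-0.22 without dendritic-marker cells and -0.29 in the stricter set).

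Between stages, interferon response genes were higher in KO eHCC than in KO premalignant members. Of 4550 measured genes 292 (6.42%) were at least 2-fold higher and 453 (9.96%) lower in KO eHCC members, or 184 (4.66%) and 324 (8.2%) of 3952 without dendritic-marker cells. In the stricter set 188 (5.52%) were higher and 179 (5.26%) lower of 3406. With TMM scaling 431 were higher and 345 lower in all members, and the median of all measured genes was 0.13 in place of -0.05. Of 19 interferon genes 15 were above 0 and 11 at least 2-fold higher, with a median log2 ratio of 1.27. Of all measured genes 47.0% were above 0. Without dendritic-marker cells 11 of 17 were at least 2-fold higher (median 1.28), and in the stricter set 8 of 13 (median 1.46). Ifi27l2a stood at 2091 CPM in KO eHCC and 297 CPM in KO premalignant members (2.82, 2.57 to 3.07; 2.23 without dendritic-marker cells). The nucleic acid sensor gene Zbp1 stood at 197 and 50.5 CPM (1.96, 1.32 to 2.65), the interferon regulator Irf7 at 165 and 68.6 CPM (1.27, 0.68 to 1.88) and Oas3 at 61.3 and 8.07 CPM (2.92, 1.43 to 4.88). Without dendritic-marker cells these ratios were 1.59 for Zbp1, 1.27 for Irf7 and 4.23 for Oas3. The Oas3 ratios rest on few UMIs in KO premalignant members, so their size is uncertain. Isg15, at 134 and 18.2 CPM, had 49% of its KO eHCC UMIs in 1 cell.

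Other cells differed in the same direction. Zbp1 differed by 1.47 in classical monocytes and by 2.62 over all passing cells, and Ifi27l2a by 1.17 and 2.73. In the WT libraries the interferon median between the stages was 0.15 over 16 genes, with 6 at least 2-fold higher and 2 lower, and 0.33 over 14 genes, with 2 higher and 3 lower, without dendritic-marker cells. The difference between the labels was not tested. Erythroid RNA stood at 1692 CPM in KO eHCC and 38.4 CPM in KO premalignant members, and its part in these ratios was not tested.

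Other genes higher in KO eHCC than in KO premalignant members were Cd14 (798 CPM, against 105 CPM; 2.93, 2.51 to 3.37), the phospholipid transfer protein gene Pltp (306 and 44.4 CPM; 2.79, 2.14 to 3.50, against 0.24 in classical monocytes), Gm42418 (17915 and 3191 CPM; 2.49) and Nr4a3 (53 UMIs and 1 UMI; 5.61, 3.07 to 10.94). Without dendritic-marker cells the ratios were 2.47 for Cd14, 2.09 for Pltp, 2.24 for Gm42418 and 4.91 for Nr4a3. The isoprenoid enzyme gene Idi1 was lower, at 3.71 CPM in KO eHCC and 103 CPM in KO premalignant members (-4.79, -7.88 to -2.87; -4.06 without dendritic-marker cells). Irf8 (-3.23), Naaa (-2.96), Cd24a (-4.04) and Rtl8b (-6.14) were lower too, but without the dendritic-marker cells the ratios of Irf8, Naaa and Cd24a were -0.59, -0.16 and 0.19, and Rtl8b had 0 UMIs in KO premalignant members. All 9 MHC class II genes were at least 2-fold lower with a median of -1.81, and without those cells 0 of 6 were and the median was -0.05. In the stricter set 0 of 6 MHC class II genes were at least 2-fold lower and 0 were above 0, with a median of -0.33. Of 16 glycolysis and hypoxia genes 15 were above 0 in both sets, with medians of 0.72 in all members and 0.69 without those cells. Of all measured genes 47.0% were above 0 in all members and 44.3% without those cells. Of 15 lipid handling genes 14 were above 0 and 6 at least 2-fold higher (median 0.91; 0.42 without those cells and 0.65 in the stricter set). The summed level of 8 macrophage markers, which include C1q, stood at 5877 CPM in KO eHCC and 2007 CPM in KO premalignant members (6083 and 3045 CPM in the stricter set), and its part in these medians was not tested. Of the 17 further non-classical genes 14 were above 0 and 6 at least 2-fold higher (median 0.63), while 0 were in the stricter set (median 0.24). Immediate-early genes ran lower in KO eHCC members, with a median of -0.53 over 17 genes and -0.99 over 16 genes in the stricter set.

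In the WT libraries 260 of 4552 genes (5.71%) were at least 2-fold higher and 382 (8.39%) lower in eHCC than in premalignant members, or 172 (4.51%) and 273 (7.15%) of 3817 without dendritic-marker cells. In the stricter set 77 (3.89%) were higher and 78 (3.95%) lower of 1977. Fkbp5 stood at 140.0 CPM in WT eHCC and 7.47 CPM in WT premalignant members (4.23, 2.87 to 5.94), and classical monocytes differed by 4.02. Il1b stood at 1029.7 CPM in WT eHCC and 315 CPM in WT premalignant members (1.71, 1.44 to 1.98; 1.33 without dendritic-marker cells) and Socs3 at 783 and 247 CPM (1.67, 1.36 to 1.98; 1.17). Gm42418 (2.71) and the mitochondrial leucyl-tRNA synthetase gene Lars2 (1.73) complete the named higher genes. Of 14 inflammatory genes 7 were at least 2-fold higher with a median of 1.04, and 4 of 14 with a median of 0.71 without dendritic-marker cells. In the stricter set 4 of 9 were at least 2-fold higher, with a median of 0.48. Neutrophil markers were held by 8 of the 28 WT eHCC members, and no value of the stricter set is given here for Il1b and Socs3.

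The 5 named lower genes of the WT libraries had 0 UMIs in WT eHCC members, where a floor of 3 UMIs was used. Dnase1l3 stood at 430.4 CPM in WT premalignant members and was at least 34.8-fold lower in WT eHCC, Bmp2 at least 19.8-fold, Oit3 at least 13.2-fold, Nr2f2 at least 11.7-fold and Rab7b at least 10.3-fold. Endothelial RNA differed between the same members, at 1009 CPM in WT eHCC and 2098 CPM in WT premalignant liver over 6 genes that include Dnase1l3. In the stricter set Dnase1l3 stood at 32.7 CPM and Bmp2 at 8.17 CPM in WT premalignant members, and Rab7b had 0 UMIs outside the dendritic-marker cells. MHC class II genes had a median of -1.14 over 8 genes in all members and 0.25 over 6 genes, 6 of them above 0, without dendritic-marker cells. Of all measured genes 44.6% were above 0 without dendritic-marker cells.

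**Figure D5:**
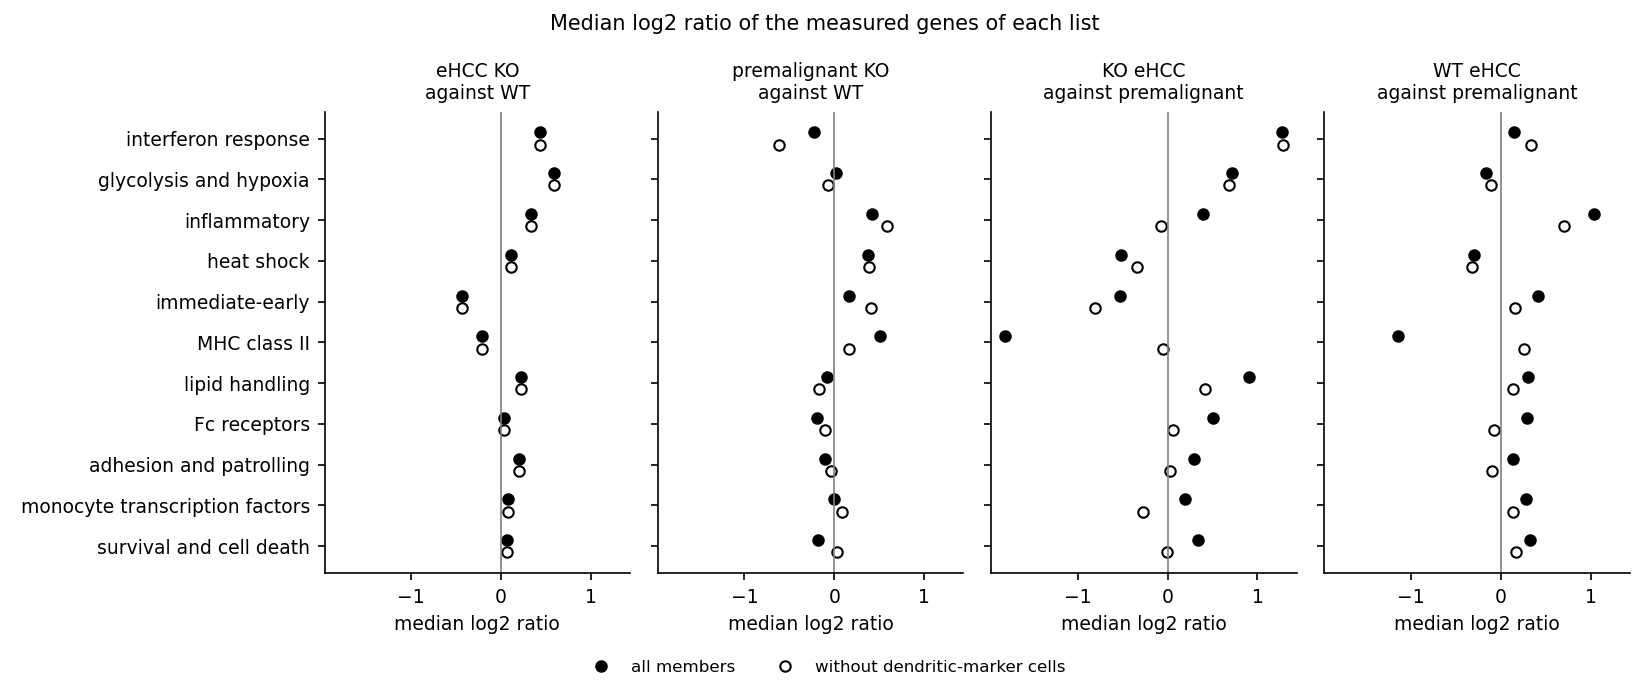
Median log2 ratio of the measured genes of 11 lists in the 4 comparisons of libraries, for all members (filled) and without dendritic-marker cells (open). Positive values are higher in KO, or in eHCC. The interferon median between the KO stages is 1.27 in all members and 1.28 without these cells, while that of MHC class II is -1.81 in all members and -0.05 without them.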

How the data were processed

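RNA of 4 mouse liver libraries was counted with 10x Genomics 5' chemistry. The authors deposited whole-number UMI counts per gene and barcode (31053 genes), not normalized, and per the file headers Cell Ranger 3.0.1 wrote them; the submitters' processing notes name the builds GRCh38 and mm10 with no role. Each library was 1 group and animals per library are not given.

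Counts were filtered and gated as the report states, summed over the members of each library and scaled to CPM. Intervals (95%) are exact Poisson for levels, exact conditional binomial for log2 ratios and Clopper-Pearson for shares, and cover counting error only. Between libraries genes with at least 30 UMIs in both together were measured, and a 2-fold difference was counted without a test. Classes were compared with edgeR 4.0.16 in R 4.3.3 (quasi-likelihood, library as block, Benjamini-Hochberg adjustment). The same fit was also run on simulated counts, and its outcome is not reported here. DESeq2 1.42.0 was an alternative. Doublets were scored with Scrublet in scanpy 1.11.5 and kept, and removing them was an alternative, as was TMM scaling of the CPM.

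Named genes were, between genotypes, the 10 highest and 10 lowest, and between stages the 5 and 5, by the interval bound nearest 0. Gate, receptor segment, mitochondrial and sex-linked marker genes were left out. So were genes carried by 1 cell (over 20% of the UMIs), fewer than 5 cells or free RNA in the library where the gene was higher. The library where the gene was lower was not held to these limits. Against another class, named genes were the 15 highest and 15 lowest by adjusted p with 1 sign in every library. Members of gene lists are also named; some genes that the rule or lists hold are not reported here. The members and lists were chosen with earlier results of these data known. Removing cells with other markers, and a C1q limit of 10 UMIs, were chosen after seeing the data.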

Additional observations from a re-analysis of the deposited data

Results flagged for a closer look

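For 6 named genes the KO library differed from the WT library in opposite directions at eHCC and in premalignant liver, and the difference between the stages was not tested, since each group is 1 library. Ccl3 had a log2 ratio of KO over WT of -0.89 at eHCC and 1.35 in premalignant members, with 66.8 CPM in KO eHCC, 124 in WT eHCC, 335 in KO premalignant and 131 in WT premalignant members. Hes1 had -0.55 at eHCC and 1.03 in premalignant members, and its level was highest in KO premalignant members (602 CPM). Wfdc17 had 0.53 at eHCC and -1.13 in premalignant members. The immediate-early genes Atf3 (-1.66 at eHCC, 0.63 in premalignant members), Dusp1 (-1.15 and 0.49) and Zfp36 (-0.90 and 0.48) shared 1 pattern: WT eHCC members held more than KO eHCC members, and KO premalignant members more than WT premalignant members.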

How the results depend on the processing

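Members were few (28 in WT eHCC), which limits every eHCC comparison. No paired analysis was possible because each group held 1 library with no shared replicate; this concerns genotypes and stages, while the classes were paired within libraries. Without cells of other markers the C1q macrophage comparison could not be fitted. Thinning every cell to 2000 UMIs gave log2 odds of the share of monocytes of -1.30 (premalignant, KO over WT) and -5.07 (WT, eHCC over premalignant), and without other markers the second was -2.25. A C1q limit of 0 gave log2 ratios of shares of passing cells of 2.78 (eHCC, KO over WT) and -2.17 (WT stages). Single genes turned round for Bmp2 in premalignant liver (1.92 with doublets removed, 1.14 without other markers), Ap1s2 at eHCC (0.079, C1q limit 0) and Cd24a between KO stages (0.19 without dendritic-marker cells).

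Counts of genes at least 2-fold apart moved with the filter. Thinned, the higher and lower counts were 34 and 37 (premalignant, KO over WT), 62 and 29 (eHCC, KO over WT), 83 and 60 (KO stages) and 41 and 78 (WT stages). At a minimum of 100 UMIs they were 11 and 33, 48 and 32, 120 and 68, and 68 and 67. At a minimum of 10 UMIs they were 477 and 628, 538 and 822, 543 and 1416, and 617 and 1065. Equal weights per cell gave 196 higher in premalignant liver. Without dendritic-marker cells counts were 114 lower (premalignant), 184 higher (KO stages) and 172 higher (WT stages). Without other markers they were 29 lower (premalignant), 131 lower (eHCC), 188 higher and 179 lower (KO stages) and 77 higher and 78 lower (WT stages). Doublet removal gave 96 lower (premalignant) and 216 lower (WT stages), a C1q limit of 0 gave 317 lower (premalignant) and 309 higher (eHCC), a C1q limit of 10 gave 337 lower (premalignant), Ly6c2 and Chil3 at 0 gave 146 lower (eHCC), and Ace and Treml4 at 3 or more gave 156 higher (WT stages).

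Against classical monocytes higher calls were 537 without dendritic-marker cells, 551 without other markers and 125 without the library block, and lower calls were 443, 504 and 87, and 510 with no filter. Leaving out a library gave 54 to 229 higher and 68 to 242 lower. Against C1q macrophages higher calls were 0 with doublets removed, 144 at 10% mitochondrial UMIs, 161 thinned, 430 without dendritic-marker cells, 504 with no filter and 154 without the block, and lower calls were 0, 81, 120, 309, 555 and 83. Lower calls were 321 with Ly6c2 and Chil3 at 0 and 352 with C1q at 0. Leaving out a library gave 84 to 330 higher and 81 to 405 lower. The cause of these shifts was not tested.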
